A study of Homo sapiens with 6 samples.

Results

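The ligands and receptors that guide axons and sort cells were examined in H9 human embryonic stem cells (hESCs, day 0) and in neuromesodermal progenitor-like (NMP-L) cells made from them (day 3). They were chosen by gene symbol as the EPH receptors, the ephrins (EFNA and EFNB), the semaphorins of classes 3 to 7 (SEMA), the plexins (PLXN), the neuropilins (NRP), the Slits and their Robo receptors, the netrins NTN1, NTN3 and NTN4, and the UNC5 receptors. The deposited table holds 67 such genes among 27672, of which 34 encode ligands and 33 receptors.

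These families carry signals between cells. Ephrins stay on the cell that makes them and activate EPH receptor tyrosine kinases on a neighbour, most often causing the cells to part, and signals also pass back into the ephrin-bearing cell. Semaphorins act through plexins, which inactivate small GTPases of the Ras and Rap type, and most secreted class 3 semaphorins also need a neuropilin to bind. Slits repel cells and axons through Robo receptors, while netrins attract through DCC and repel through UNC5. In the embryo, the same molecules shape the primitive streak, set somite boundaries and later direct axons along the spinal cord, which arises in part from neuromesodermal progenitors.

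The undifferentiated group held 3 libraries of H9 cells, an established line, in feeder-free culture. Their labels give DEF medium with bFGF at 30 ng/ml and Noggin at 10 ng/ml on fibronectin, whereas the study's methods describe TESR medium on Geltrex. The NMP-L group held 3 libraries of the same line after 3 days in N2/B27 medium with bFGF at 20 ng/ml and CHIR99021, a GSK3 inhibitor that activates Wnt signalling, at 3 µM. The methods introduce BMP and TGFβ inhibitors before day 3, but the NMP-L labels mention neither. Noggin, the BMP inhibitor of the methods, is thus labelled in the hESC group only. The groups therefore differ in medium, factors and days in culture together. All libraries come from 1 cell line and carry the label WT (wild type). The labels call the libraries biological replicates without naming separate cultures, so the p-values measure the spread between these libraries. Polyadenylated RNA was read as single-end reads of 76 bp.

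Library totals lay between 19454543 and 19744142 expected counts in hESCs and between 20687062 and 23036426 in NMP-L cells. In the markers of the named cell types, 3 of 4 pluripotency genes were lower in NMP-L cells, among them NANOG, and 5 of 6 NMP genes were higher, among them T (BRACHYURY), while SOX2 did not pass the test. The 6 neuron markers summed to between 300.2 and 325.9 TPM (a level scaled for transcript length and library) in hESCs. In NMP-L cells they summed to between 183.7 and 200.6, with 4 lower and 0 higher. TUBB3 made up most of both sums (means of 273.0 and 163.8 TPM), and DCX and INA did not pass the test. For 5 neural crest markers the sums were 24.7 to 29.2 and 2.94 to 3.71, with both tested genes (FOXD3 and SOX10) lower. FOXD3 made up most of the hESC sum (mean 21.4 TPM, against 0.78 in NMP-L cells). TFAP2A, TFAP2B and PAX3 reached no more than 0.12 TPM in any library. The 6 endothelial markers summed to 19.2 to 20.8 in hESCs and 10.1 to 10.7 in NMP-L cells, but of 3 tested only TEK was lower, and it made up most of both sums (means of 17.5 and 8.5 TPM). CDH5 and EMCN were at or under 3 counts in all 6 libraries, and PECAM1 reached no more than 0.11 TPM in any. Among 4 presomitic mesoderm markers 2 of 3 tested genes were lower (22.4 to 27.3 TPM against 11.4 to 13.7), and for 5 endoderm markers 0 changed (1.81 to 3.27 against 2.72 to 4.87). In bulk RNA, fewer cells of a type and less transcript per cell cannot be told apart. Whether minority cells of these types were present, or had a part in the results, was not tested.

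Of the 67 genes, 62 passed the expression filter. Each was tested within a fit over all 15517 genes that passed, by edgeR's quasi-likelihood test with Benjamini-Hochberg adjustment. At an adjusted p under 0.05, 45 of the 62 differed between NMP-L cells and hESCs (72.6%, against 55.8% of all tested genes). In NMP-L cells 17 were higher, where 29.1% of all tested genes were, and 28 were lower, where 26.7% were. A change of at least 2-fold was found for 21 (33.9%, against 18.6% of all tested genes), 8 of them higher (9.38% of all genes) and 13 lower (9.18%). The median log2 fold change was -0.23, beside 0.03 over all tested genes, and the median size of change was 0.70 beside 0.40. Of the 5 untested genes, EPHA5 and ROBO4 had 3 counts or fewer in all 6 libraries and no fold is given.

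**Figure D1:**
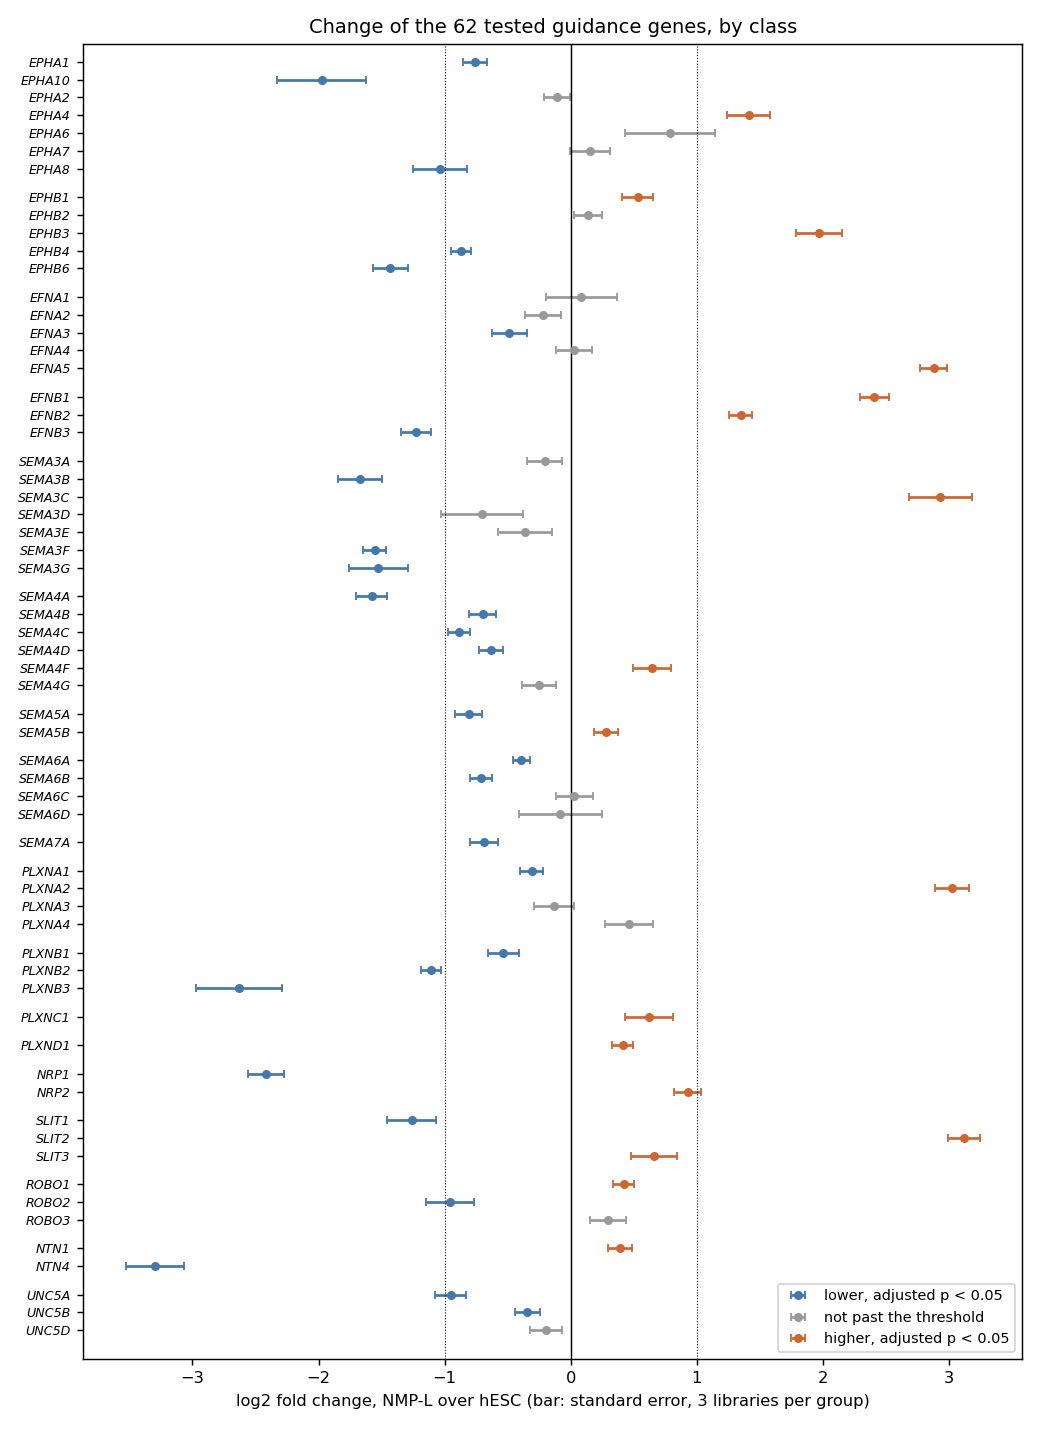
Log2 fold change of NMP-L over hESC (x axis) for the 62 tested guidance genes, grouped by class. Points are estimates and bars standard errors from 3 libraries per group; orange genes were higher, blue genes lower and grey genes not past the threshold, with dotted lines at 2-fold. SLIT2, PLXNA2, SEMA3C and EFNA5 lie near 3 on the right, NTN4 lies at -3.30 on the left, and most semaphorins lie left of 0.

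The largest rises, of between 7.35- and 8.68-fold, were spread over 4 families: SLIT2, the plexin PLXNA2, the secreted semaphorin SEMA3C and the ephrin EFNA5. Their RefSeq promoter windows (GRCh38.p14, from 250 bases before the annotated start to 50 after) are shown because their rises were the largest. Capitals mark 2 short motifs searched on both strands: the core of TCF/LEF sites, CTTTGA or CTTTGT, and the GC box, GGGCGG. The windows are chr4:20251655-20251954 (plus strand) for SLIT2, chr1:208244335-208244634 (minus) for PLXNA2, chr7:80922340-80922639 (minus) for SEMA3C and chr5:107670888-107671187 (minus) for EFNA5.
SLIT2: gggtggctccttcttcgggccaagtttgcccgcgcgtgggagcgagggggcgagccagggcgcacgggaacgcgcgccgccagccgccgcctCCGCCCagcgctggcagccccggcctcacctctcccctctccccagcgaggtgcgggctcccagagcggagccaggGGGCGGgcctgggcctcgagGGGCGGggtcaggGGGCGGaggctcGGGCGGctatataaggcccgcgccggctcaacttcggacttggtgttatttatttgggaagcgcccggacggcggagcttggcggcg
PLXNA2: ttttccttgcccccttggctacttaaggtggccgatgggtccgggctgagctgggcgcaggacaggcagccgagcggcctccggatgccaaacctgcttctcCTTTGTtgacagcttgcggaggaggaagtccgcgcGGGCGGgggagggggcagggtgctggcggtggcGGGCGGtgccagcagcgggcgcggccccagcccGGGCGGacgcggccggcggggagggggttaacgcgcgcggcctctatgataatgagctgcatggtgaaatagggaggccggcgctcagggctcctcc
SEMA3C: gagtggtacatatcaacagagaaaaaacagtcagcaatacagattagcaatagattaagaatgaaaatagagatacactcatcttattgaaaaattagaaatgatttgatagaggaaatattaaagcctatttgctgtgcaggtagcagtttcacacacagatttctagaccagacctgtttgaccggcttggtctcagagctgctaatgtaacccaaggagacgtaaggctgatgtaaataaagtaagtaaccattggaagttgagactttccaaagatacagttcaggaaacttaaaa
EFNA5: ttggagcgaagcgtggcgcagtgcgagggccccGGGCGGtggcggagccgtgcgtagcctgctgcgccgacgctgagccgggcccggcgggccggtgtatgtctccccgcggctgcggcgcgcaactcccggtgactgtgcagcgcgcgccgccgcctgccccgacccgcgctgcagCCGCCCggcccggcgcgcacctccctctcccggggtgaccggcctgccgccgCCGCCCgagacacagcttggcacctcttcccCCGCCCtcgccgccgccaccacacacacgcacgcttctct
SLIT2 holds 5 GC boxes, EFNA5 holds 4 and PLXNA2 holds 3, in windows with a GC content of 74.3%, 78.0% and 70.3%. SEMA3C holds none, at a GC content of 36.0%. The TCF/LEF core occurs once, in PLXNA2 at position -148. RefSeq windows were found for 57 of the 67 genes, and 17.5% of them hold this core, against 26.3% of all 27305 promoters. Among members that rose at least 2-fold 1 of 8 windows holds it, and among the 10 windows found for those that fell, 1 does (SLIT1, at -214). The GC box occurs in 77.2% of the members' windows and 44.6% of all, with a median GC content of 65.7% and 58.3%. Matches that overlap were each counted, a match is no evidence of binding, and other start sites were not examined.

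Among the ephrins, the membrane-bound ligands of EPH receptors, 3 rose and 2 fell of 8 tested, and all 3 rises and 1 fall were at least 2-fold (55.8% of all tested genes passed the threshold and 18.6% did so at 2-fold). EFNA5, a GPI-anchored ligand of EPHA receptors (chromosome 5 of GRCh37, 106712595 to 107006638), was listed at 5.14, 4.42 and 4.32 TPM in hESCs and at 38.2, 32.3 and 38.5 TPM in NMP-L cells. The groups lie far apart, and the count-based change was 7.35-fold (log2 fold change 2.88, standard error 0.11, adjusted p = 3.1e-09). EFNB1, a transmembrane ligand that sets cell sorting boundaries in the embryo, had levels of 5.95, 5.42 and 6.42 TPM and then 35.2, 29.3 and 36.6 TPM. Every NMP-L library was above every hESC library, with a rise of 5.31-fold (log2 2.41, standard error 0.11, adjusted p = 1.8e-08). EFNB2, best known as the arterial partner of EPHB4, went from 13.6, 11.6 and 12.5 TPM to 33.8, 31.7 and 37.2 TPM. Its rise of 2.55-fold (log2 1.35, standard error 0.09, adjusted p = 2.9e-07) again left no overlap between the groups.

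EFNB3, a midline ligand in the later spinal cord, moved the other way from its paralogues. Its levels were 16.0, 16.3 and 15.1 TPM in hESCs and 8.04, 6.93 and 6.67 TPM in NMP-L cells, 2.34-fold lower (log2 -1.22, standard error 0.12, adjusted p = 5.5e-06). EFNA3 was lower by 1.40-fold (log2 -0.49, standard error 0.14, adjusted p = 0.011), from 18.0, 17.0 and 20.1 TPM to 16.4, 11.7 and 13.8 TPM. The call for EFNA3 was lost without hESC replicate 3 (adjusted p = 0.051) or without NMP-L replicate 2 (0.052). EFNA4, the most abundant EFNA transcript of hESCs beside EFNA3, had 18.0, 18.5 and 19.1 TPM and then 22.5, 20.4 and 17.2 TPM, and its groups overlapped (log2 0.03, adjusted p = 0.89). EFNA1 and EFNA2 likewise did not pass the test, at log2 values of 0.09 and -0.22. EFNA4, EFNA3 and EFNA1 lie within one stretch of chromosome 1 (155036213 to 155107375 on GRCh37), away from EFNA5, and none of these 3 neighbours changed by 2-fold.

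The makeup of each ephrin class was thereby different between the groups. EFNA5 held between 7.46% and 9.55% of the summed EFNA level (TPM) in hESC libraries and between 41.9% and 48.1% in NMP-L libraries. EFNB3 held the largest EFNB share in each hESC library, 44.4% to 48.8%, and the smallest in each NMP-L library, 8.29% to 10.4%. The share of EFNB1 went from between 16.3% and 18.9% to between 43.1% and 45.7%. In NMP-L cells EFNA5, EFNB2 and EFNB1 were at like levels, 36.3 ± 3.47, 34.2 ± 2.75 and 33.7 ± 3.89 TPM (SD, n = 3 each), and neighbours in this order differ by less than their spread.

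**Figure D2:**
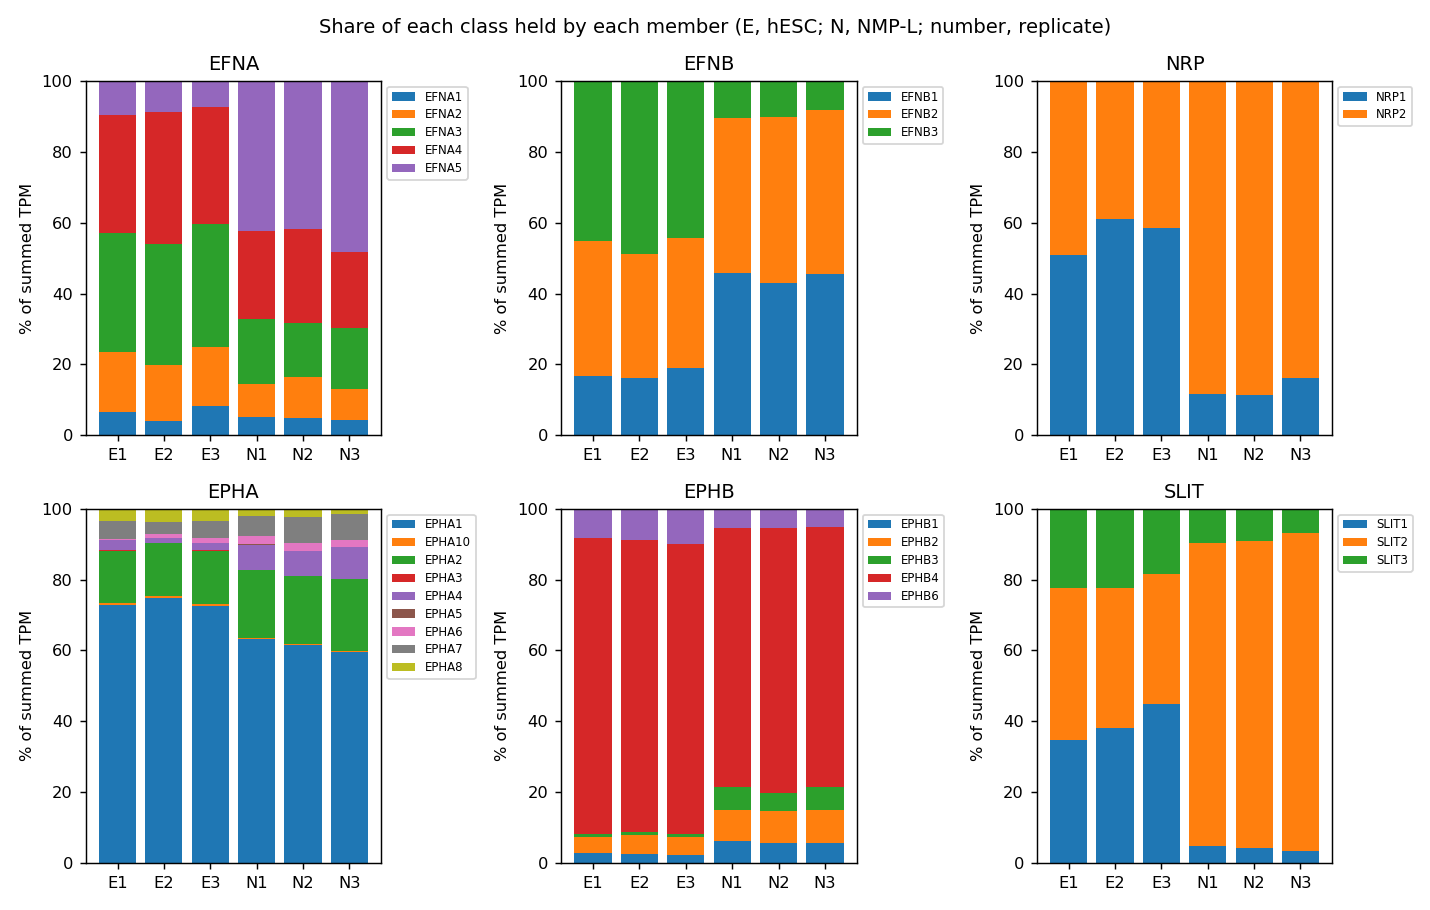
Share of the summed TPM of a class (y axis, percent) held by each member in each library (x axis; E, hESC; N, NMP-L; the number is the replicate) for 6 classes. EFNA5 and EFNB1 take larger shares in all 3 NMP-L libraries, NRP2 takes over 83% there, SLIT2 over 85%, and EPHA1 and EPHB4 hold most of their classes in every library.

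Of the 14 EPH receptor genes, 12 were tested, and NMP-L cells had more of 3 and less of 5, where 29.1% and 26.7% of all tested genes were higher and lower. The class was led in every library by one gene of each type. EPHA1 was listed at 54.6, 59.5 and 63.1 TPM in hESCs and 39.9, 36.4 and 35.7 TPM in NMP-L cells, which did not overlap (1.69-fold lower, log2 -0.76, standard error 0.10, adjusted p = 4.4e-05). EPHB4, a receptor of EFNB2, had 89.1, 94.3 and 96.8 TPM and then 55.4, 55.3 and 53.0 TPM, a fall of 1.83-fold (log2 -0.87, standard error 0.08, adjusted p = 3.8e-06). EPHA1 held 72.5% to 74.8% of the summed EPHA level in hESCs and 59.6% to 63.2% in NMP-L cells. EPHB4 held 81.8% to 83.6% and 73.1% to 74.8% of the EPHB level.

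The receptors that rose did so from low levels. EPHB3 went from 0.89, 1.17 and 1.19 TPM to 5.09, 3.68 and 4.87 TPM, 3.91-fold higher (log2 1.97, standard error 0.18, adjusted p = 3.7e-06). EPHA4, which binds ephrins of both classes and takes part in somite boundary formation, went from 2.00, 1.19 and 1.75 TPM to 4.52, 4.13 and 5.45 TPM. It was 2.66-fold higher (log2 1.41, standard error 0.17, adjusted p = 2.6e-05), with no overlap for either receptor. EPHB1 rose by less, from 2.81 ± 0.19 to 4.34 ± 0.23 TPM (SD, n = 3 each, log2 0.53, adjusted p = 0.0039). In NMP-L cells EPHA4 and EPHB3 stood at 4.70 ± 0.68 and 4.55 ± 0.76 TPM (SD, n = 3 each), so that their order is not resolved.

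The remaining falls were in EPHB6 and EPHA10, which lack kinase activity, and in EPHA8. EPHB6 had 8.71, 10.0 and 11.8 TPM in hESCs and 4.04, 4.12 and 3.73 TPM in NMP-L cells, 2.69-fold lower (log2 -1.43, standard error 0.14, adjusted p = 5.5e-06). EPHA10 had 24, 19 and 32 counts and then 7, 9 and 6 counts, which gave 0.48, 0.35 and 0.62 TPM against 0.12, 0.16 and 0.10 TPM (log2 -1.98, standard error 0.35, adjusted p = 5.6e-04, and -0.39 on the log2(TPM + 1) scale). EPHA8 went from 2.53, 3.04 and 3.07 TPM to 1.28, 1.43 and 0.89 TPM (log2 -1.03, standard error 0.21, adjusted p = 0.0016, and -0.82 on that scale). All 3 of these falls were free of overlap between groups. EPHA2, the second most abundant EPHA gene in both groups, had 11.1, 11.9 and 13.1 TPM and then 12.2, 11.4 and 12.2 TPM, and its groups overlapped (log2 -0.11, adjusted p = 0.40). EPHA6, EPHA7 and EPHB2 also missed the threshold, with log2 values of 0.78, 0.16 and 0.14. EPHA3, with 12, 5 and 10 counts in hESCs and 3, 0 and 1 in NMP-L cells, lay under the filter. Its mean in hESCs, scaled to library size, was 3.34 times a floor of 3 counts per library in NMP-L cells.

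Summed over the ephrins and over the EPH receptors, ligand and receptor levels moved in opposite directions. The 8 ephrins summed to 88.1 ± 4.55 TPM in hESCs and 157.5 ± 11.3 TPM in NMP-L cells (SD, n = 3 each), while the 14 EPH receptors summed to 193.7 ± 11.9 and 134.8 ± 3.65 TPM. Their ratio within a library was 0.49, 0.43 and 0.45 in hESCs and 1.20, 1.09 and 1.21 in NMP-L cells. For the EFNB and EPHB classes alone the ratio went from 0.30 ± 0.03 to 1.02 ± 0.10, and for EFNA and EPHA from 0.67 ± 0.05 to 1.35 ± 0.06 (SD, n = 3 each). These sums describe transcripts and carry no test, since the members had been chosen as a set. The rise of the ephrin sum lies mostly in EFNA5, EFNB1 and EFNB2, while EFNB3 and EFNA3 fell. Of the ephrin sum, EFNA5 held 4.70% to 5.76% in hESCs and 22.3% to 24.0% in NMP-L cells. EFNB1 held 6.52% to 6.98% and 20.2% to 22.8%, and EFNB2 13.6% to 15.2% and 20.2% to 23.2%. The receptor sums rest mostly on EPHB4 and EPHA1. EPHB4 held 47.1% to 49.0% of the EPH receptor sum in hESCs and 39.9% to 41.5% in NMP-L cells. EPHA1 held 30.1% to 30.7% and 27.0% to 28.7%.

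**Figure D3:**
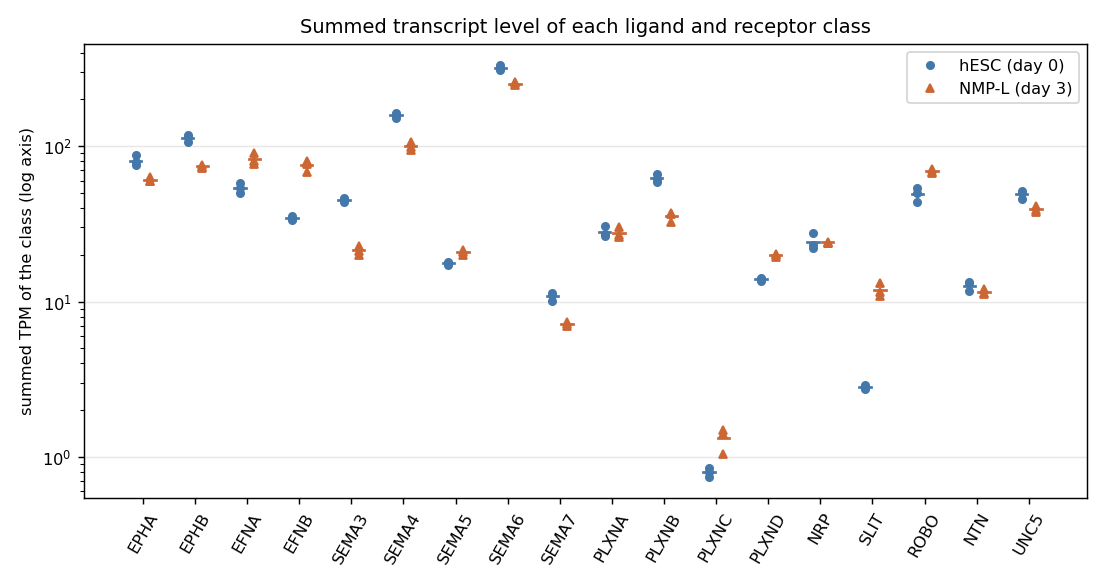
Summed TPM of each ligand or receptor class (y axis, log scale) in each library, with a horizontal line at the group mean. The EFNA, EFNB, SLIT and ROBO points of NMP-L cells (triangles) lie above those of hESCs (circles), the EPHA, EPHB, SEMA3, SEMA4, SEMA6 and PLXNB points lie below, and the NRP sums are alike.

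Of 20 tested semaphorin genes, 11 were lower, 3 higher and 6 past no threshold, beside 26.7% of all tested genes lower and 29.1% higher, with a median log2 fold change of -0.66. Their sum went from 552.0 ± 18.8 TPM in hESCs to 402.3 ± 8.63 TPM in NMP-L cells (SD, n = 3 each). SEMA6A, a transmembrane ligand of PLXNA2 and PLXNA4, was the most abundant of all 67 genes, with 255.1, 238.1 and 266.0 TPM and then 206.2, 200.9 and 210.9 TPM. It fell by 0.39 on the log2 scale (standard error 0.07, adjusted p = 4.1e-04) and left no overlap. Without SEMA6A the sums were 299.0 ± 10.6 and 196.3 ± 7.06 TPM.

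Of the 5 semaphorins that changed at least 2-fold, 4 belong to class 3, whose members are secreted. SEMA3F, a repellent that signals through NRP2, had 31.1, 31.1 and 32.0 TPM in hESCs and 11.7, 11.3 and 11.2 TPM in NMP-L cells. The replicates are tight, and the fall was 2.94-fold (log2 -1.55, standard error 0.09, adjusted p = 9.6e-08). SEMA3B, its neighbour on chromosome 3 (50304990 to 50314977, with SEMA3F at 50192478 to 50226508, GRCh37), went from 5.13, 4.78 and 5.97 TPM to 1.74, 1.42 and 1.84 TPM, 3.19-fold lower (log2 -1.67, standard error 0.18, adjusted p = 1.0e-05). SEMA3G, also on chromosome 3, was at 1.09, 1.21 and 1.24 TPM and then 0.42, 0.53 and 0.36 TPM (log2 -1.53, standard error 0.23, adjusted p = 1.9e-04, and -0.60 on the log2(TPM + 1) scale). None of the 3 genes overlapped between groups.

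SEMA3C, a ligand of both neuropilins known from cardiac outflow tract and neural crest, was the only class 3 gene to rise. It had 8, 10 and 11 counts in hESCs and 87, 69 and 107 in NMP-L cells, which gave 0.19, 0.21 and 0.23 TPM against 1.60, 1.35 and 1.98 TPM. The rise was 7.63-fold (log2 2.93, standard error 0.25, adjusted p = 2.0e-06), although on the log2(TPM + 1) scale it was 1.121. Its neighbours on chromosome 7, SEMA3A, SEMA3D and SEMA3E, did not pass the test, with log2 values of -0.21, -0.71 and -0.36.

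In class 4, SEMA4A had 13.9, 15.1 and 13.7 TPM and then 5.57, 4.71 and 4.84 TPM, 2.99-fold lower (log2 -1.58, standard error 0.13, adjusted p = 1.1e-06). SEMA4C, a ligand of PLXNB2 and the most abundant of its class, went from 59.9, 63.5 and 63.4 TPM to 37.5, 36.1 and 34.3 TPM. That fall was 1.85-fold (log2 -0.89, standard error 0.09, adjusted p = 6.0e-06), and neither gene overlapped between groups. SEMA4B and SEMA4D, the PLXNB1 ligand, were lower by 1.62- and 1.55-fold, SEMA4F was higher by 1.56-fold and SEMA4G did not pass. Among the other classes, SEMA5A, SEMA6B and SEMA7A were lower, with log2 values of -0.81, -0.71 and -0.69, and levels of SEMA7A, a GPI-anchored protein, of 10.1, 11.1 and 11.3 TPM against 6.96, 7.39 and 7.17 TPM. SEMA5B, the most abundant class 5 gene, was at 14, 14.9 and 14.96 TPM and then 19.8, 18.9 and 17.98 TPM. Its small rise (log2 0.28, standard error 0.10, adjusted p = 0.030) lost its call in 7 of 15 alternatives, among them those without hESC replicate 1 or 3 or NMP-L replicate 1 or 2, where adjusted p was 0.088, 0.085, 0.11 and 0.089. SEMA6C and SEMA6D did not pass, at log2 values of 0.03 and -0.08.

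**Figure D4:**
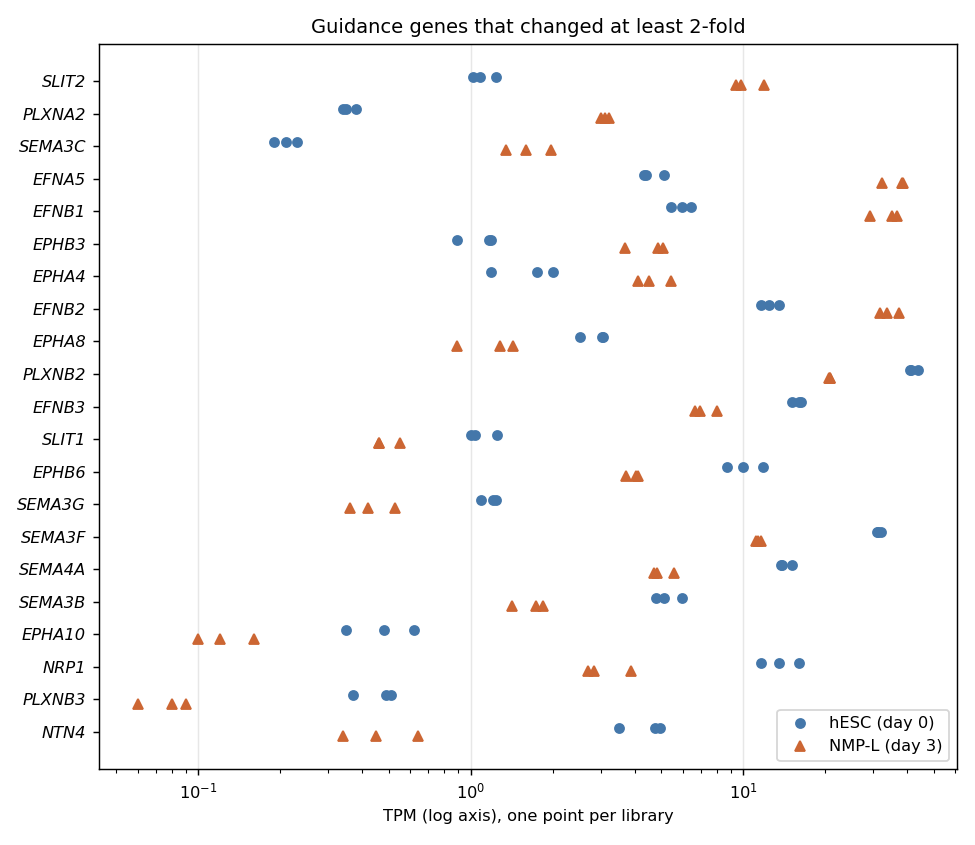
TPM (x axis, log scale) of the 21 guidance genes that changed at least 2-fold, with 1 point per library; circles are hESC and triangles NMP-L libraries, and genes are ordered by fold change. No gene has overlapping groups, which the choice of genes by their change in these libraries favours (61.6% of all tested genes have none in CPM). SLIT2, PLXNA2, SEMA3C and EFNA5 at the top and NTN4, PLXNB3 and NRP1 at the bottom are the most separated.

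The neuropilins, co-receptors of class 3 semaphorins and of VEGF, moved in opposite directions. NRP1 was listed at 11.6, 13.5 and 16.1 TPM in hESCs and at 2.84, 2.69 and 3.87 TPM in NMP-L cells, 5.33-fold lower (log2 -2.42, standard error 0.14, adjusted p = 9.2e-08, and -1.83 on the log2(TPM + 1) scale). NRP2 was listed at 11.3, 8.57 and 11.4 TPM and then at 21.4, 21.3 and 20.1 TPM, higher by 0.93 on the log2 scale (standard error 0.11, adjusted p = 2.2e-05). Neither gene had overlapping groups. The sum of the 2 genes was 24.2 ± 2.90 TPM in hESCs and 24.1 ± 0.19 TPM in NMP-L cells (SD, n = 3 each), so the total differed by less than its spread. The NRP1 to NRP2 ratio was 1.03, 1.58 and 1.41 in hESC libraries and 0.13, 0.13 and 0.19 in NMP-L libraries. The summed level of SEMA3 ligands over that of neuropilins was 1.89 ± 0.19 in hESCs and 0.89 ± 0.06 in NMP-L cells.

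Among the 9 plexins, 3 were higher and 4 lower (29.1% and 26.7% of all tested genes), and all 3 of the B class fell. PLXNA2 (chromosome 1, 208195587 to 208417729 on GRCh37) rose from 0.35, 0.34 and 0.38 TPM to 3.22, 3.02 and 3.12 TPM. This was 8.14-fold (log2 3.02, standard error 0.13, adjusted p = 1.0e-08) with tight replicates on both sides, although the change was 1.60 on the log2(TPM + 1) scale. PLXNA1, the most abundant PLXNA gene in every library, had 22.4, 23.4 and 25.6 TPM and then 22.3, 19.5 and 19.7 TPM. Its decrease (log2 -0.31, standard error 0.09, adjusted p = 0.015) left groups that nearly touch, and the call was lost in 5 of 15 alternatives, among them those without hESC replicate 3 or NMP-L replicate 2 or 3 (adjusted p = 0.066, 0.064 and 0.060). PLXNA3 and PLXNA4 did not pass the test, at log2 values of -0.13 and 0.46.

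PLXNB2, a widely expressed receptor of class 4 semaphorins, had 40.8, 41.3 and 43.98 TPM in hESCs and 20.8, 20.7 and 20.9 TPM in NMP-L cells. It was 2.16-fold lower (log2 -1.11, standard error 0.08, adjusted p = 4.4e-07), far beyond the spread in either group. PLXNB1 fell by 0.54 on the log2 scale (standard error 0.12, adjusted p = 0.0032). PLXNB3 was near the floor, with 21, 30 and 30 counts against 4, 5 and 6, or 0.37, 0.49 and 0.51 TPM against 0.06, 0.08 and 0.09 TPM (log2 -2.63, standard error 0.34, adjusted p = 5.3e-05, and -0.43 on the log2(TPM + 1) scale). The class D and C receptors were higher without reaching 2-fold. PLXND1, the receptor of SEMA3E, had 13.6, 14.02 and 14.2 TPM and then 20.0, 19.3 and 20.1 TPM (log2 0.41, standard error 0.08, adjusted p = 0.0012), and PLXNC1, the receptor of SEMA7A, had 0.80, 0.74 and 0.85 TPM and then 1.41, 1.05 and 1.49 TPM (log2 0.62, standard error 0.19, adjusted p = 0.015). The PLXNC1 call was lost without hESC replicate 2 or NMP-L replicate 1 (adjusted p = 0.064 and 0.067).

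In the Slit family, secreted repellents of axons and migrating cells, SLIT2 (chromosome 4, 20253528 to 20622184 on GRCh37) was among the members with the largest rises. Its levels were 1.24, 1.08 and 1.02 TPM in hESCs and 9.79, 9.38 and 11.9 TPM in NMP-L cells, an 8.68-fold difference (log2 3.12, standard error 0.13, adjusted p = 5.2e-09). The estimates for SLIT2, PLXNA2, SEMA3C and EFNA5 are too close for their order to be resolved, and on the log2(TPM + 1) scale SLIT2 changed by 2.42, under the 2.73 of EFNA5. SLIT1 was at like levels to SLIT2 in hESCs, 1.00, 1.04 and 1.25 TPM, and lower in NMP-L cells, at 0.55, 0.46 and 0.46 TPM (log2 -1.26, standard error 0.19, adjusted p = 2.0e-04, and -0.49 on the log2(TPM + 1) scale). SLIT3 rose slightly (log2 0.66, standard error 0.18, adjusted p = 0.0095), with a call that stood at an adjusted p of 0.050, just over the threshold, without hESC replicate 3. The SLIT2 to SLIT1 ratio lay between 0.82 and 1.24 in hESCs and between 17.8 and 25.9 in NMP-L cells. SLIT1 is the only member with fractional counts. It shares 216 exonic bases with the readthrough gene ARHGAP19-SLIT1 on the same strand, which had between 0 and 114 expected counts, so its value is uncertain.

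The main Slit receptor of these cells, ROBO1, had 49.5, 40.0 and 46.6 TPM and then 63.8, 63.9 and 67.4 TPM. Its rise of 1.34-fold (log2 0.42, standard error 0.08, adjusted p = 0.0011) was small beside that of SLIT2, and it held over 91% of the summed ROBO level in each library. ROBO2 was lower (log2 -0.96, standard error 0.19, adjusted p = 0.0012), with 1.24 ± 0.24 TPM in hESCs and 0.68 ± 0.09 TPM in NMP-L cells (SD, n = 3 each), and ROBO3 did not pass (log2 0.30, adjusted p = 0.098). Slit transcripts summed to 0.06 of the ROBO level in hESCs and to 0.17 ± 0.01 in NMP-L cells. ROBO4, known from endothelium, had 1, 0 and 2 counts in hESCs and 0 in each NMP-L library.

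Of the 5 tested netrin and UNC5 genes, 3 were lower and 1 higher in NMP-L cells (26.7% and 29.1% of all tested genes). NTN4, a basement membrane netrin that binds laminin, was listed at 4.94, 3.49 and 4.73 TPM in hESCs against 0.45, 0.64 and 0.34 TPM in NMP-L cells. It was 9.83-fold lower (log2 -3.30, standard error 0.23, adjusted p = 3.6e-07), or -1.86 on the log2(TPM + 1) scale. NTN1, the chemoattractant of the floor plate, was higher, with 7.64, 7.93 and 7.94 TPM and then 10.7, 10.7 and 11.6 TPM (1.31-fold, log2 0.39, standard error 0.09, adjusted p = 0.0039). NTN1 thus made up 57.6% to 67.8% of the summed netrin level in hESCs and 94.3% to 96.4% in NMP-L cells. NTN3, with 12, 5 and 7 counts in hESCs and 1, 0 and 2 in NMP-L cells, lay under the filter. Its scaled mean in hESCs was 2.97 times the floor of 3 counts per library in NMP-L cells.

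Of the UNC5 receptors, UNC5A was lower by 1.93-fold (log2 -0.95, standard error 0.12, adjusted p = 5.3e-05), with 12.6, 12.8 and 13.7 TPM and then 7.83, 7.37 and 6.31 TPM. UNC5B, the most abundant UNC5 gene on average, had 18.1, 20.0 and 21.8 TPM and then 16.6, 17.7 and 16.2 TPM (log2 -0.35, standard error 0.10, adjusted p = 0.012), a call lost in 3 of 15 alternatives, among them that without hESC replicate 3 (adjusted p = 0.059). UNC5D did not pass (log2 -0.19, adjusted p = 0.21), with overlapping groups of 13.21 to 19.43 TPM in hESCs and 13.15 to 16.44 TPM in NMP-L cells. UNC5C was at 1 count in each hESC library and at 3, 10 and 4 counts in NMP-L cells. Its scaled mean in NMP-L cells was 1.73 times the floor of 3 counts per library in hESCs. DCC, the attractive netrin receptor and not one of the 67 genes, was at most 0.16 TPM in any library.

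Sorted by how the ligand is held, the secreted ligands (SEMA3, SLIT and NTN) included 4 higher and 5 lower of 12 tested, and 7 of these changed at least 2-fold (55.8% of all tested genes passed and 18.6% at 2-fold). The 15 transmembrane ligands included 4 higher and 8 lower, 4 of them by 2-fold, and the 6 GPI-anchored ligands 1 higher and 2 lower. Summed levels of the secreted ligands were 60.7 ± 2.21 TPM in hESCs and 44.7 ± 3.14 in NMP-L cells (SD, n = 3 each). For the GPI-anchored ligands they were 64.7 ± 4.25 and 89.6 ± 6.68 TPM, within which EFNA5 alone had means of 4.63 and 36.3 TPM. The transmembrane ligands summed to 530.3 ± 17.8 and 448.9 ± 13.3 TPM. By level, 27 of the 67 genes averaged at least 10 TPM in hESCs and 25 in NMP-L cells, 21 of them in both.

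A list of 34 further genes, the partners and effectors of these receptors, was read in the same fit. All 34 were tested, and 9 were higher, 10 lower and 15 past no threshold (55.8% of all tested genes passed), with a median log2 fold change of 0.05. Scaled to library size only, or tested on log TPM, the split was 12 higher and 7 lower. The largest rises were FLRT3, a membrane protein that binds UNC5 receptors (log2 3.52, standard error 0.39, adjusted p = 1.4e-05), MICAL2, an actin-oxidising enzyme (log2 2.15, standard error 0.17) and CHN2, a GTPase-activating protein for Rac (log2 0.95, standard error 0.16). The FLRT3 levels were 0.17, 0.24 and 0.08 TPM against 2.29, 1.25 and 2.55 TPM, a change of 1.36 on the log2(TPM + 1) scale. The largest falls were RND1, a GTPase that binds plexins (log2 -1.34, standard error 0.14, adjusted p = 1.1e-05), and MICAL1, which acts downstream of plexin A (log2 -1.23, standard error 0.11, adjusted p = 1.9e-06), followed by FLRT1 (log2 -0.83, standard error 0.33), which passed narrowly (adjusted p = 0.0499) and lost its call in 11 of 14 alternatives.

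Where the groups of a single gene do not overlap, an exact permutation test (two-sided, on log2 of CPM + 0.1, where CPM is counts scaled to library size) gives p = 0.1, the smallest value 3 libraries against 3 allow. This was so for 48 of the 62 tested members, and 61.6% of all tested genes had groups without overlap. Exons of 14 of the 67 genes overlap an exon of another listed gene on GRCh37, and no source states that counting used strand. For EPHA1 the overlap with ZYX is 82 bases, and ZYX had between 3382 and 4232 counts in hESCs and between 2436 and 2884 in NMP-L cells. For EPHB4 it is 69 bases with SLC12A9, and for SEMA4G 1215 bases with MRPL43. PLXNB3 shares 1432 bases with SRPK3, which had at most 1 count in any library.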

How the data were processed

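Processing notes of the submitters name cutadapt 1.9.1, STAR 2.5.2a, RSEM 1.3.0, DESeq2 1.12.3 and the build hg19, without the order or role of each, and the annotation release is not given in the sources used here. The deposited values are expected counts of each gene from RSEM, not normalized between libraries, and TPM values, scaled by effective transcript length and to a fixed total per library. Each of the 6 libraries has its own columns and 0 per-sample columns were unused. No column of the authors' own comparisons was used.

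After rounding of the expected counts, edgeR 4.0.16 (R 4.3.3) was used: filterByExpr with a minimum count of 10, TMM scaling, and the quasi-likelihood test of NMP-L against hESC over all 15517 genes that passed, with Benjamini-Hochberg adjustment. The standard error is the log2 fold change divided by the square root of F. Levels are deposited TPM, and folds come from counts. A floor of 3 counts per library corresponds to between 0.13 and 0.15 CPM. Floors cover counting error only, whereas the standard errors also hold the spread between libraries estimated in the fit. The fit was also run on simulated data in which 200 of 15517 genes changed, far fewer than the 8653 called here. That run therefore does not measure error in these data. Positions are from GENCODE 44 lifted to GRCh37, the same assembly as hg19, and promoters from RefSeq on GRCh38.p14.

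Genes named with values in every library passed the threshold with a change of at least 2-fold, averaging 1 CPM or more in the group where they were higher, or led their class by mean TPM. Of the 34 effector genes, the 3 largest rises and falls past the threshold and over the same CPM are named. Others named singly were chosen after their values were seen. The members and lists were chosen with earlier results of these data known. Alternatives were RLE, upper-quartile and library-size scaling, DESeq2 1.42.0, limma 3.58.1 on log2(TPM + 0.1) or log2(TPM + 1), a filter of 10 counts in every library, no filter, a replicate block, and each library left out. Plots used matplotlib 3.10.9 in Python 3.11.15.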

Additional observations from a re-analysis of the deposited data

How the results depend on the processing

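Of the 45 members past the threshold, 39 kept their side of it in all 15 alternatives in which they could be tested, 6 lost it in some (EFNA3, SEMA5B, PLXNA1, PLXNC1, SLIT3 and UNC5B), and 0 changed direction. All 21 members named for a change of at least 2-fold stayed past the threshold in every alternative that tested them, whereas EPHA10, SEMA3C and PLXNB3 could not be tested with at least 10 counts in every library. The number past the threshold lay between 42 and 47, and with single libraries left out between 42 (without hESC replicate 3) and 47 (without hESC replicate 2). The number that also changed 2-fold lay between 15 on the log2(TPM + 1) scale, which shrinks low genes, and 23, against 21. With single libraries left out it was between 22 and 23, and for the effector genes past the threshold between 16 and 19. Without any filter beyond 1 count, 47 of 67 passed, EPHA3 and NTN3 being the additions. Of the 17 tested members not past the threshold, EPHA6, SEMA3D, PLXNA4, ROBO3 and UNC5D crossed it in at least 1 alternative, and 5 others, with log2 values near 0, changed sign in some without crossing it. With single libraries left out they ranged from -0.019 to 0.25 (EPHA7), -0.18 to 0.40 (EFNA1), -0.077 to 0.17 (EFNA4), -0.065 to 0.17 (SEMA6C) and -0.32 to 0.20 (SEMA6D). Upper-quartile scaling gave -0.0061 for EFNA4 and -0.0020 for SEMA6C, and limma on log2(TPM + 0.1) and log2(TPM + 1) gave 0.024 and 0.0047 for SEMA6D. FLRT1 kept its call in 3 of the 14 alternatives that tested it and its direction in all of them, and the other 5 effector genes named kept their calls in each.

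Replicate numbers are shared by the groups, but no source says that they mark a shared culture. The correlation of deviations from the group means between same-numbered libraries was -0.37, -0.06 and -0.13. Between other pairs it lay from -0.17 to 0.27. With 3 libraries per group, each group centred on its own mean, these values cannot decide whether the numbers mark shared cultures. With the replicate block 44 members passed (SEMA5B was lost), 21 of them at 2-fold, as did 16 effector genes. Precision is limited by 3 libraries per group and, for genes under about 1 TPM, by low counts.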
